A study of Homo sapiens with 12 samples.

Results

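GPR146, GPR183, PLD6, SH3BP5, EAF1 and LINC01226 are 6 of the 9529 genes measured in NOMO-1 cells with and without a hairpin against ALKBH5. They were chosen by their own signal before actinomycin D, where it was lower in both knockdown lines than in both control libraries. The values at 0 h are therefore a description and carry no test. At 0 h both lines were below both controls for 6.88% of all genes (656 of 9529). By log2 difference the members ranked between 2 (GPR146) and 32 (EAF1) from the lowest. NOMO-1 is a human leukaemia line of myeloid origin that has monocytic traits. Cells carried either a non-targeting hairpin (shNS) or an ALKBH5 hairpin (shALKBH5-#1 or shALKBH5-#2), delivered by lentivirus, and all were sampled after 0, 8 or 12 h in actinomycin D, which blocks transcription. The 12 libraries of messenger RNA form 6 groups of 2: shNS replicates 1 and 2, and knockdown lines D and E, at each time. The letters D and E come from the deposited columns, and no source used here ties a letter to a hairpin. The labels' treatment protocol, which also gives puromycin selection, speaks of lentivirus against FTO and of the drugs CS1 and CS2, whereas the titles, which are used here, name ALKBH5 and actinomycin D.

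ALKBH5 removes the methyl mark N6-methyladenosine (m6A) from RNA, a mark that reader proteins can turn into faster decay of the transcript. GPR146 and GPR183 encode class A receptors, which sit in the plasma membrane and signal through G proteins. PLD6 and SH3BP5 encode proteins of the outer mitochondrial membrane, EAF1 encodes a partner of the elongation factor ELL, and LINC01226 is a long noncoding RNA.

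Promoter sequences are shown because the members were lower together. For 4 of the 6 members they were found in RefSeq (GRCh38.p14), as windows from 250 bases before to 50 bases after an annotated start. They are printed 5′ to 3′ on the strand of the gene, with matches to the motifs named below in capitals. The first lies at chr7:1044296-1044595 (plus strand), the second at chr13:99307350-99307649 (minus strand), the third at chr3:15332537-15332836 (minus strand) and the fourth at chr3:15427348-15427647 (plus strand).
GPR146: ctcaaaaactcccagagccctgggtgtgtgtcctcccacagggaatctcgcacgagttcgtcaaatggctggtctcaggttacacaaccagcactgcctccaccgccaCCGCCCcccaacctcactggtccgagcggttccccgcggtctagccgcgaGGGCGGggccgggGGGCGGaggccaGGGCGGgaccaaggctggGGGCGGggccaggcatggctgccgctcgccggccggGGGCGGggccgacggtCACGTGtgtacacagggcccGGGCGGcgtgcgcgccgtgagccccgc
GPR183: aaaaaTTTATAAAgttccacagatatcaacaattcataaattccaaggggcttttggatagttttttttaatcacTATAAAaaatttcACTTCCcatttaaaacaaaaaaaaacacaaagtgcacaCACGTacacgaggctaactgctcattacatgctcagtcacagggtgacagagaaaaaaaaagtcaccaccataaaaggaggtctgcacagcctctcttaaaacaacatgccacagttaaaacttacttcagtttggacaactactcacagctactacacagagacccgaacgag
SH3BP5: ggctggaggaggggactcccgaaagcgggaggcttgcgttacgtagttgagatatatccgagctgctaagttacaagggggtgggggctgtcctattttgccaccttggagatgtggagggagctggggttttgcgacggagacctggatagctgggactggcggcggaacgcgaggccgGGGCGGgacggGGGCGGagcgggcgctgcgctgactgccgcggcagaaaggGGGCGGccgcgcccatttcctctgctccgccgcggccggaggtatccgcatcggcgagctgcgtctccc
EAF1: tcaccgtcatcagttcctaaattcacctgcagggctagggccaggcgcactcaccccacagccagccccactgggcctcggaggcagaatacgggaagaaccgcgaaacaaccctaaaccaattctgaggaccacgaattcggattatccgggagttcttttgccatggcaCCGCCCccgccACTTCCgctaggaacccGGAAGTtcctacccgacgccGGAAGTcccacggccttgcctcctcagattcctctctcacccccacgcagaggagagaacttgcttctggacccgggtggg
Both strands were searched for the E-box CACGTG, its hypoxia-element core ACGTG (contained in CACGTG), the AP-1 site TGACTCA or TGAGTCA, the cyclic AMP element TGACGTCA, the GC box GGGCGG, the ETS core GGAAGT and the TATA box TATAAA. No motif was found in all 4 sequences. The GPR146 window held 7 GC boxes and 1 CACGTG, against 67.7% and 10.2% of 10603 promoters of 7277 measured genes with at least 1 such match. The SH3BP5 window held 3 GC boxes and no other motif searched. EAF1 held 3 GGAAGT matches, at 68, 51 and 31 bases before the start, where 28.4% of promoters held at least 1. GPR183 stood out in base composition, with 36.7% G and C against a median of 65.0% over all promoters, which put it at percentile 1.38, and it held 3 TATAAA matches, a motif found in 5.53% of promoters. These TATAAA matches lie 245, 243 and 175 bases before the start, and the first 2 overlap on opposite strands. GPR183 also held 1 GGAAGT and 1 ACGTG. A second annotated GPR146 start, with its window at chr7:1055120-1055419, held 1 GC box and no other motif searched. These matches are descriptions of letters and not of binding.

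ALKBH5 itself was checked first. Its 0 h signal was 84.3 and 78.6 in shNS against 25.4 (line D) and 21.2 (line E). At 8 h it was 35.9 and 32.1 against 1.52 and 4.29, and at 12 h 8.22 and 8.30 against 0.636 and 0.973. The labelled knockdown libraries were thus below the controls at each time. The values are an expression signal that appears to be scaled to ERCC spike-ins, since the spike-in median stayed between 29.9 and 33.1 while the summed gene signal dropped from 826000 to 953211 at 0 h to between 143765 and 193639 at 12 h. Read depth is unknown. The lowest value of any gene in a library was 1.71 to 2.23 at 0 h, 0.753 to 1.10 at 8 h and 0.338 to 0.433 at 12 h, so a signal near this floor cannot show a larger difference. Of myeloid markers, 8 of 14 were measured, with none of 6 erythroid or 5 epithelial markers, 1 of 9 T and NK cell, 2 of 6 B cell and 1 of 5 megakaryocyte markers. CD14 and CSF1R were not among the measured genes. Over 8 and 12 h 4 of the 8 myeloid markers were higher in the knockdown by limma (background 4.91%), and none was lower. They were CD68 (1.10, limma adjusted p = 0.00112), ELANE (0.99), LYZ (0.96) and ITGAM (1.33, with line D at 2.30 and line E at 0.35). ITGAM lost its call with median-of-ratios scaling (limma adjusted p = 0.0706). With 1 mean for each line or replicate none of the 4 was called, their limma adjusted p lying between 0.0663 and 0.163. The summed signal of the 8 was 1029 to 1123 in shNS and 1527 to 2141 in the knockdown at 8 h, and 397 to 447 against 753 to 790 at 12 h. The 1 measured T and NK cell marker, NKG7, was lower (-0.73, limma adjusted p = 0.0288), a call lost under both other scalings (limma adjusted p = 0.0776 and 0.0528). The B cell marker CD22 was also lower (-0.72, limma adjusted p = 0.0107). CD22 kept its call under both scalings (limma adjusted p = 0.00315 and 0.0144) but lost it with 1 mean for each line or replicate (limma adjusted p = 0.1004). The megakaryocyte marker GP1BA was not called. NKG7 read 350.4 to 401 against 179.8 to 336 at 8 h, and 149.9 to 181 against 72.4 to 115 at 12 h. CD3D, CD3E and MS4A1 were not among the measured genes. The part of these markers in the results below was not tested. In bulk RNA of this 1 cell line, fewer cells expressing a marker and less of its RNA per cell cannot be told apart.

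The tests reported here use the 8 libraries at 8 and 12 h and leave out the 0 h values by which the genes were chosen. The choice was still made with earlier results of these data known, so these tests are not held-out support for it. Those 8 libraries come from the same lines as the 0 h libraries and are not independent cultures as far as the labels say. Because actinomycin D blocks transcription, the RNA at 8 and 12 h is what remained of the RNA present at 0 h. A gene chosen as low at 0 h thus starts low, and its later difference is not independent of that choice. Differences are knockdown minus shNS of log2(signal + 1), a scale on which the change of a low gene is understated, and were tested with limma across all 9529 genes with Benjamini-Hochberg adjustment (called under 0.05). Nothing says that replicates of a group are separate cultures, so p-values reflect how much these libraries vary, and that variation may be technical.

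GPR146 is an orphan receptor known in the liver for acting upstream of ERK and the sterol regulator SREBP2. At 0 h it read 39.4 and 35.9 in shNS against 5.89 (line D) and 10.5 (line E). Both lines lay far below the controls, at 21.7% of the shNS mean, the second lowest log2 difference of all genes (-2.12). At 8 h GPR146 read 4.80 and 3.56 in shNS against 1.31 and 1.80. At 12 h it read 2.04 and 1.78 against 1.22 and 1.18. The groups did not overlap at either time, but line D at 8 h was only 1.74 times the lowest value of its library. The difference was -1.02 at 8 h (SE 0.19, limma adjusted p = 0.0243) and -0.40 at 12 h (SE 0.19, limma adjusted p = 0.311). The 8 h call was lost without line D at 8 h (limma adjusted p = 0.0532) and with a pseudocount of 0.1 (limma adjusted p = 0.0508). GPR146 ranked 314 from the lowest of all genes at 8 h and 1207 at 12 h.

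GPR183, also called EBI2, is the receptor for a dihydroxylated cholesterol and guides the movement of B cells, T cells and dendritic cells. Its signal at 0 h was 34.5 and 30.9 in shNS, 12.4 (line D) and 11.05 (line E). Both lines sat close together, near 35.9% of the shNS mean. At 8 h GPR183 read 6.13 and 6.30 against 1.76 and 1.73. At 12 h it read 2.08 and 2.48 against 1.32 and 0.691. The groups stayed apart, and the 8 h values within each group were nearly equal. At 8 h, however, lines D and E were only 2.33 and 2.02 times the lowest value of their libraries. Line E at 12 h was 2.04 times that value. GPR183 was lower by limma at 8 h (-1.40, SE 0.20, adjusted p = 0.0131), whereas the 12 h difference of -0.72 (SE 0.20, adjusted p = 0.129) did not pass.

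PLD6, or MitoPLD, cleaves the mitochondrial lipid cardiolipin to phosphatidic acid, promotes mitochondrial fusion and in germ cells takes part in making piRNAs. At 0 h it gave 70.3 and 68.1 in shNS against 24.6 (line D) and 24.8 (line E). The libraries of each group agreed to within a few percent of their mean, with SDs of 1.60 and 0.133 (n = 2 each). At 8 h PLD6 gave 17.2 and 15.4 against 3.76 and 5.31. At 12 h it gave 6.36 and 6.68 against 1.95 and 1.89. Its knockdown level was 35.7% of the shNS mean at 0 h, 27.8% at 8 h and 29.5% at 12 h (the first of these chose the gene). PLD6 was lower at 8 h (-1.66, SE 0.22, limma adjusted p = 0.0107) and at 12 h (-1.36, SE 0.22, limma adjusted p = 0.0477). The 12 h call is a narrow one: it was lost in 6 of 8 fits that each left out 1 library, namely either shNS library at 8 or 12 h or either knockdown library at 12 h.

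SH3BP5, known as Sab, is a docking protein for the kinase JNK on mitochondria and an exchange factor for RAB11. Its signal at 0 h was 59.0 and 52.9 in shNS, 25.1 (line D) and 26.5 (line E). At 8 h it was 33.3 and 28.4 against 7.26 and 10.9. At 12 h it was 10.4 and 9.35 against 3.60 and 3.74. Each knockdown value was below each control value of its time, and the knockdown share of the shNS mean was 46.1%, 29.4% and 37.2% in turn. SH3BP5 had the lowest 8 h difference of the 6 genes (-1.68, SE 0.24, limma adjusted p = 0.0131). At 12 h the difference was -1.22 (SE 0.24, limma adjusted p = 0.0781).

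EAF1 stimulates ELL, a factor that keeps RNA polymerase II moving and that is itself a fusion partner of KMT2A in leukaemia. Its signal at 0 h was 145 and 125 in shNS, 60.9 (line D) and 69.4 (line E). At 8 h it was 30.7 and 25.8 against 9.23 and 11.5. At 12 h it was 9.87 and 9.55 against 5.81 and 4.30. Again no knockdown library reached a control library of its time. EAF1 was lower at 8 h (-1.36, SE 0.24, limma adjusted p = 0.0230), and its 12 h difference was -0.83 (SE 0.24, limma adjusted p = 0.142).

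LINC01226 is the noncoding member. Its signal at 0 h was 22.8 and 17.4 in shNS, 5.52 (line D) and 9.64 (line E). At 8 h it was 6.36 and 5.48 against 2.46 and 2.89. At 12 h it was 2.32 and 1.90 against 1.86 and 1.20, so that line D lay just under shNS replicate 2. Line D at 0 h was only 2.47 times the lowest value of its library. At 8 h lines D and E were 3.26 and 3.38 times that of theirs. LINC01226 had the smallest differences of the 6 genes at the later times. It was -0.91 at 8 h (SE 0.20, limma adjusted p = 0.0389) and -0.31 at 12 h (SE 0.20, limma adjusted p = 0.467). The 8 h call passed in only 7 of 17 alternatives. It was lost with median-of-ratios scaling (limma adjusted p = 0.0657) and with rescaling to the ERCC mean (limma adjusted p = 0.0792), and it was lost without shNS replicate 1 or 2 at 8 or 12 h or without line D at 8 h.

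**Figure D1:**
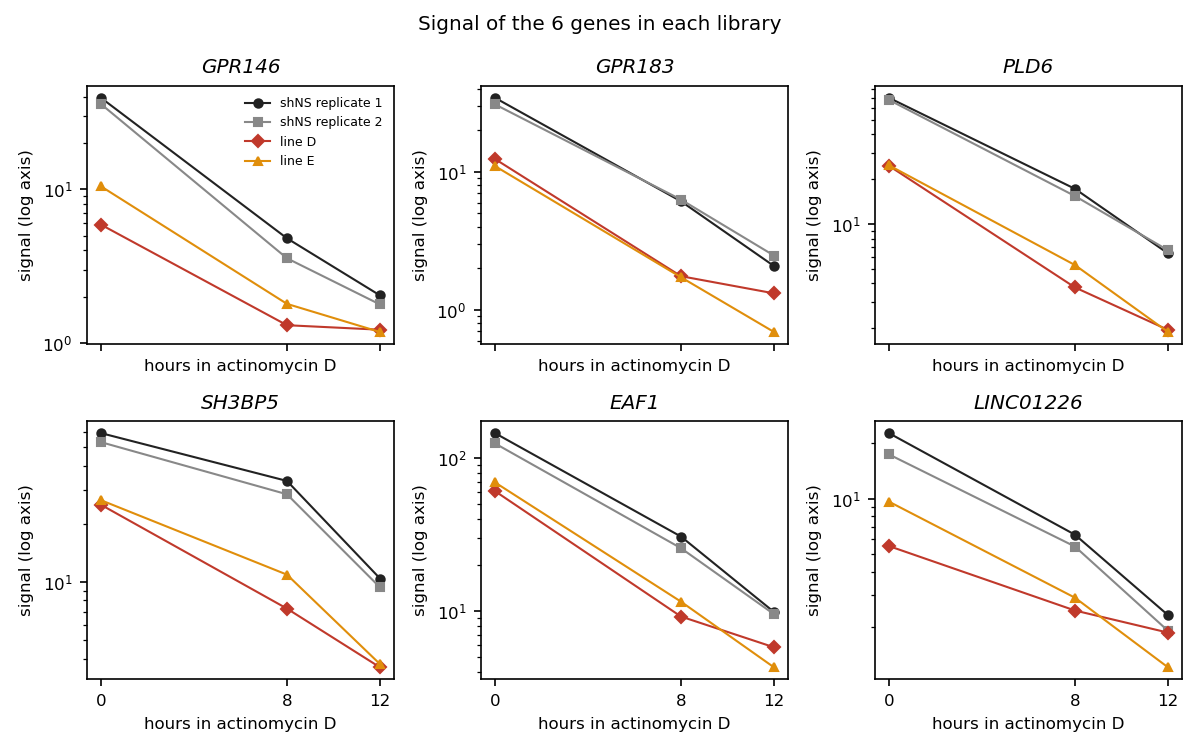
Signal of each of the 6 genes in the 12 libraries (vertical log axis, deposited signal; horizontal axis, hours in actinomycin D), with lines joining the libraries of 1 replicate or line. In every panel the knockdown lines D and E lie below both shNS replicates at each time, and GPR146 ends within a narrow range, 1.18 to 2.04, at 12 h.

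At 8 h all 6 genes were lower in the knockdown by limma, where 2.96% of all genes were called lower, and their median difference was -1.38 against -0.23 over all genes. At 12 h 1 of 6, PLD6, was called, where 0.0735% of all genes (7 of 9529) were called lower, and 4 of the 6 had an unadjusted p under 0.05, as did 16.5% of all genes in either direction. The 6 had a median of -0.78 at 12 h against 0.06 over all genes. Both knockdown libraries were below both shNS libraries for all 6 genes at 8 h and at 12 h, as they were for 42.8% of all genes at 8 h and for 25.0% at 12 h. The 8 h count rests on both shNS libraries of that time: without either of them no member passed limma, and no gene of the whole table did.

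Averaged over 8 and 12 h, all 6 genes were lower, where 12.2% of all genes were called lower and the median over all genes was -0.09. PLD6 had the largest difference at -1.51 (SE 0.17, limma adjusted p = 8.34e-05), with SH3BP5 at -1.45 (SE 0.18, limma adjusted p = 0.000208). EAF1 was at -1.10 (SE 0.18, limma adjusted p = 0.00136) and GPR183 at -1.06 (SE 0.17, limma adjusted p = 0.00116). GPR146 was at -0.71 (SE 0.16, limma adjusted p = 0.00845) and LINC01226 at -0.61 (SE 0.17, limma adjusted p = 0.0234). These 4-against-4 tests count the 8 and 12 h libraries of a line as separate. With 1 mean for each line or replicate, 3 of 6 remained called by limma, where 62 of 9529 genes were called lower. The 3 were PLD6 (limma adjusted p = 0.0218), SH3BP5 (limma adjusted p = 0.0383) and GPR183 (limma adjusted p = 0.0391). EAF1 (adjusted p = 0.0515), GPR146 (adjusted p = 0.0663) and LINC01226 (adjusted p = 0.1003) missed the threshold in that limma fit. LINC01226 also lost its call when 1 shNS library was left out: replicate 1 at 8 h (limma adjusted p = 0.1001), replicate 2 at 8 h (limma adjusted p = 0.0768) or replicate 1 at 12 h (limma adjusted p = 0.0520).

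**Figure D2:**
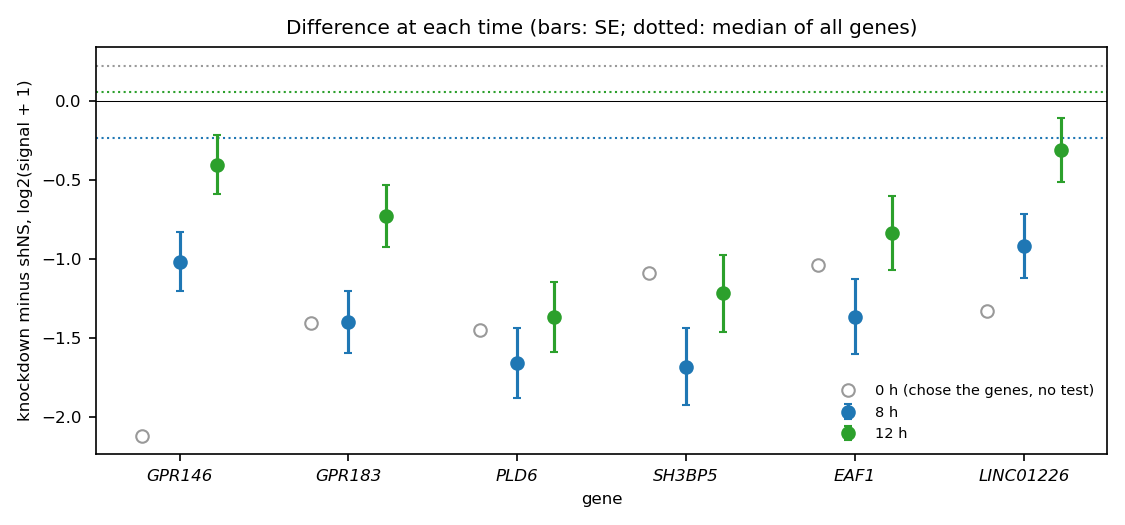
Knockdown minus shNS for each gene at 0 h (open circles, the values that chose the genes), 8 h (blue) and 12 h (green), in log2(signal + 1), with SE bars for the tested times and dotted lines for the median of all genes. PLD6 and SH3BP5 stay below -1.2 at 8 and 12 h, while GPR146 lies at -1.02 at 8 h and -0.40 at 12 h.

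The lines D and E, 1 hairpin each, were compared over 8 and 12 h. None of the 6 genes differed between them by limma, where 26.5% of all genes did. At an unadjusted p under 0.05 the count of members was also 0, where 36.8% of all genes passed. Each arm of this comparison is 1 line, and the 8 and 12 h libraries of a line deviate together (correlation 0.900). The p-values, the share of genes called and the intervals therefore rest on repeated times and not on replicate lines. In this limma fit, with 38116 degrees of freedom, the spread used for a gene was the trend over all genes. The gene's own variation between libraries did not enter these p-values and intervals. The differences, line D minus line E, ran from -0.28 for SH3BP5 (95% interval -0.68 to 0.11) to 0.24 for GPR183 (95% interval -0.16 to 0.63). This comparison depended on single libraries: without line D at 8 h GPR183 (0.61), LINC01226 (0.49) and EAF1 (0.43) were higher in line D, and without line D at 12 h SH3BP5 (-0.60), GPR146 (-0.43) and PLD6 (-0.43) were lower in it. With median-of-ratios scaling GPR183 (0.30) and SH3BP5 (-0.24) were called, where 2852 of 9529 genes were called higher in line D and 2788 lower.

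The share of the 0 h signal left in each library is given as a description, because it contains the 0 h values that chose the genes. In shNS the median gene kept 42.2% and 41.1% at 8 h in the 2 replicates. GPR146 kept 12.2% and 9.92%, and their geometric mean lay at percentile 2.01 of all genes, among the transcripts with least left. GPR183 kept 17.8% and 20.4%, EAF1 had a geometric mean of 20.9% and PLD6 of 23.5%. LINC01226 kept 29.6%, whereas SH3BP5 kept 55.1%, above the median gene. In the knockdown the median gene kept 23.9% (line D) and 33.6% (line E) at 8 h. GPR146 kept 22.2% and 17.2% there, above both shNS replicates, and LINC01226 kept 44.5% and 29.9%. GPR183, PLD6, SH3BP5 and EAF1 kept less in both lines than in both shNS replicates at 8 h, as did 82.5% of all genes, while 0.903% kept more in both lines as GPR146 did.

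By 12 h the median gene kept 11.9% and 12.9% in shNS, 10.9% (line D) and 10.7% (line E). GPR146 kept 5.18% and 4.97% in shNS against 20.7% (line D) and 11.3% (line E). LINC01226 kept 10.5% in shNS and 20.5% in the knockdown (geometric means), and its line D value, 33.7%, stood far above line E at 12.5%. These are the same 2 genes whose 12 h difference was smallest. In line D at 0 h, GPR146 and LINC01226 stood at only 2.64 and 2.47 times the lowest value of that library. Their shares left in line D thus rest on a starting value near the floor. PLD6 kept 9.41% in shNS and 7.77% in the knockdown, and SH3BP5 17.6% and 14.2%, with both lines below both replicates for each, as for 41.2% of all genes and for the median gene. GPR146 and LINC01226 lay above in both lines, as did 12.1%. GPR183 (6.94% and 8.15%) and EAF1 (7.22% and 7.69%) overlapped between the groups.

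**Figure D3:**
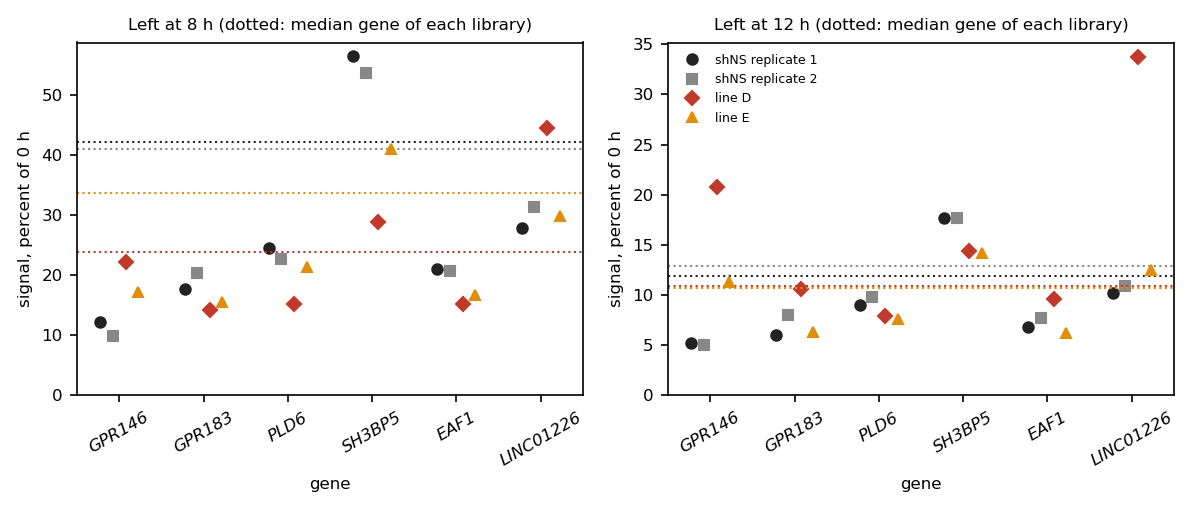
Signal at 8 h (left) and 12 h (right) as a percent of the 0 h signal of the same replicate or line, 1 point for each library, with dotted lines for the median gene of each library. GPR146 lies below the median lines in every library at 8 h, and at 12 h its knockdown points (20.7% and 11.3%) lie above its shNS points (5.18% and 4.97%).

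The change from 8 to 12 h uses no 0 h library and was tested. In shNS all 6 genes fell by limma, where 98.7% of all genes did, with changes from -1.55 for SH3BP5 to -0.82 for GPR146 and a median over all genes of -1.34. In the knockdown 5 of 6 fell, where 95.0% of all genes did (median -1.06). GPR146 was the exception, at -0.21 (SE 0.19, limma adjusted p = 0.292). Its 8 h values in lines D and E were only 1.74 and 2.11 times the lowest value of their libraries. A fall from such a low signal is understated on this scale. GPR183 changed by -0.47 (limma adjusted p = 0.0381), a call lost in 7 of 8 fits without 1 library, all but the one without line D at 12 h. LINC01226 lost its call (-0.55, limma adjusted p = 0.0232) without shNS replicate 2 at 12 h or line E at 8 or 12 h. These falls hold on the deposited scale, and median-of-ratios scaling, which sets the median change near 0, turns each of them positive and ends every call.

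The difference of these late changes between the arms was tested itself. It was called for 0 of the 6 genes and 0% of all genes by limma. At an unadjusted p under 0.05 there were 2 members, GPR183 (0.67, 95% interval 0.06 to 1.28) and GPR146 (0.61, 95% interval 0.04 to 1.19), and 187 genes in all. The knockdown values of both at 8 h were near the floor. Lines D and E read 1.74 and 2.11 times the lowest library value for GPR146, and 2.33 and 2.02 times for GPR183. Their late falls in the knockdown may thus be understated. The other 4 members ran from 0.29 (PLD6) to 0.61 (LINC01226), against a median over all genes of 0.29. The adjusted p was 0.819 for each member.

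The 6 genes lie on 5 chromosomes in GENCODE 29 (GRCh38). SH3BP5 (chr3:15254853-15341368, minus strand) and EAF1 (chr3:15427355-15450635, plus strand) are separated by 86.0 kb. GPR146 (chr7:1044576-1059261, plus strand) lies inside C7orf50, and GPR183 (chr13:99294530-99307405, minus strand) lies inside UBAC2, each on the opposite strand of its host. PLD6 (chr17:17200995-17206315, minus strand) overlaps MPRIP on the opposite strand. LINC01226 (chr1:31506226-31583306, plus strand) overlaps LINC01225 on the same strand. SH3BP5 overlaps its antisense RNA SH3BP5-AS1, and EAF1 overlaps METTL6 and COLQ, all on opposite strands. No source used here says whether the libraries or the authors' counting kept strand, so reads in these overlaps may be shared between the genes.

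Of 29 other measured genes within 250 kb of a member, 6 were lower over 8 and 12 h by limma and 0 were higher, where 12.2% and 4.91% of all genes were called. Their median difference was -0.37, against -0.09 over all genes. All 4 measured neighbours of PLD6 were among the 6: COPS3, a subunit of the COP9 signalosome (-1.001, SE 0.20, limma adjusted p = 0.00435), FLCN, the folliculin tumour suppressor (-0.86, SE 0.16, limma adjusted p = 0.00326), NT5M, a mitochondrial nucleotidase (-0.69, limma adjusted p = 0.0450), and MPRIP (-0.49, limma adjusted p = 0.0435). Unlike PLD6, these 4 were near their control level at 0 h, with log2 differences between -0.14 and 0.05. Over 8 and 12 h lines D and E alone gave -1.34 and -0.66 for COPS3, and -1.09 and -0.28 for NT5M. The lines lay closer for FLCN (-0.87 and -0.84) and MPRIP (-0.45 and -0.54). NT5M overlapped between the groups at 8 h, with line E at 9.54 and shNS replicate 2 at 9.22. At 0 h COPS3 read 79.2 and 70.1 in shNS against 75.9 (line D) and 73.0 (line E). At 8 h COPS3 read 36.2 and 32.4 against 10.8 and 20.3.

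COLQ, which encodes the collagen tail of acetylcholinesterase and overlaps the end of EAF1, was lower both at 0 h and later. Its signal at 0 h was 43.4 and 41.3 in shNS, 9.39 (line D) and 23.3 (line E). At 8 h it was 26.3 and 24.2 against 3.03 and 13.2. Its difference over 8 and 12 h was -1.65 (SE 0.33, limma adjusted p = 0.00423), with line D (-2.47) far below line E (-0.83), whereas EAF1 differed by 0.03 between the lines over these times. LINC01225, which overlaps LINC01226, was at -0.42 (SE 0.13, limma adjusted p = 0.0371) and had been lower at 0 h too (-1.02). The hosts of the receptors were not called: C7orf50 was at -0.03 (limma adjusted p = 0.932) and UBAC2 at -0.47 (limma adjusted p = 0.135). SH3BP5-AS1 (0.25, limma adjusted p = 0.237) and METTL6 (-0.42, limma adjusted p = 0.0681) were not called either. With 1 mean for each line or replicate none of the 6 neighbours passed limma, their adjusted p lying between 0.0663 (FLCN) and 0.188 (NT5M). LINC01225 passed in 7 of 17 alternatives, MPRIP in 8 of 18 and NT5M in 7 of 18.

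**Figure D4:**
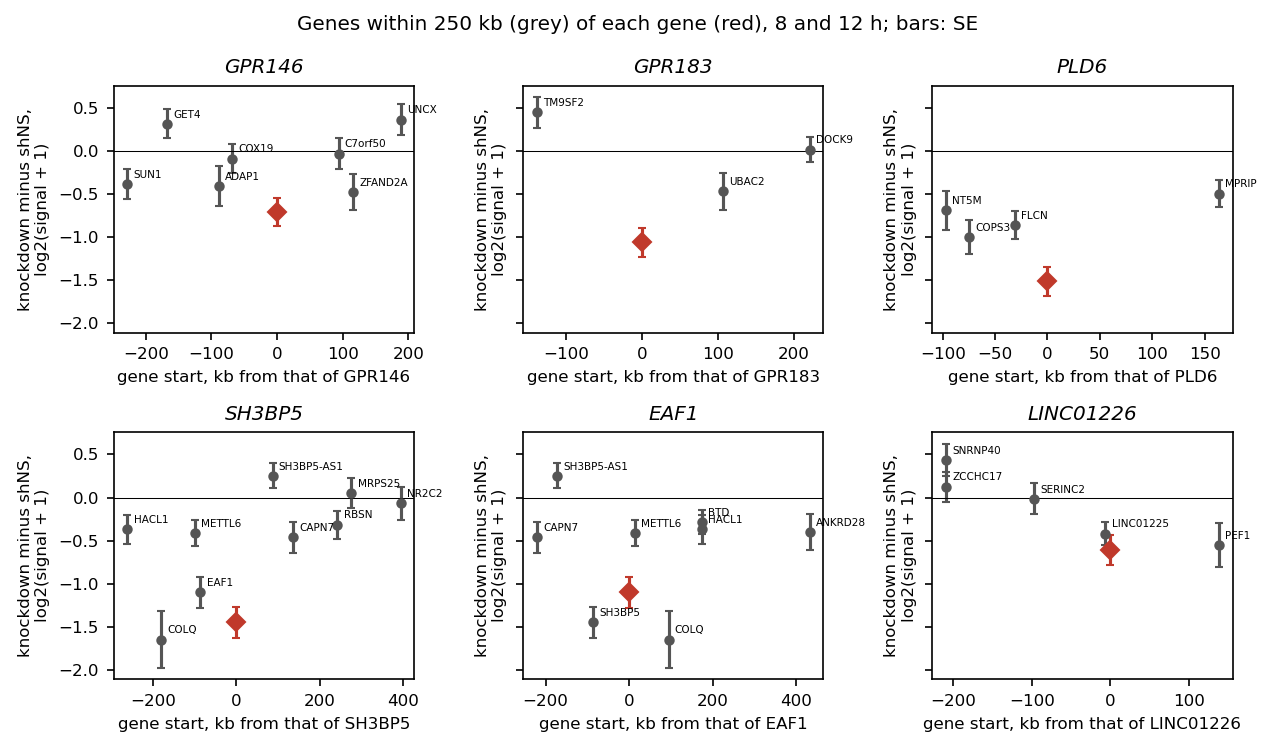
Knockdown minus shNS over 8 and 12 h in log2(signal + 1) with SE bars (vertical axis), for each of the 6 genes (red) and the measured genes within 250 kb (grey), by distance of the gene starts in kb along the direction of transcription (horizontal axis). SH3BP5 and EAF1 appear as grey points in each other's panel, COLQ lies at -1.65, and the host genes C7orf50 and UBAC2 lie above the receptors inside them.

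The longest basic transcript of each gene in GENCODE 29 was searched for GGACT, the DNA spelling of the commonest core of the m6A consensus, on the transcript strand. GPR146 held none in 1969 bases. GPR183 (1700 bases), PLD6 (2560 bases) and SH3BP5 (2822 bases) held 2 each, and EAF1 held 5 in 4690. LINC01226 held 13 in 5019 bases, or 2.59 per kb, at percentile 97.0 of 9144 genes whose median was 0.926 per kb. Per kb the 6 genes thus ran from percentile 4.38 (GPR146) to 97.0 (LINC01226). In the 3′ untranslated regions the AU-rich motif ATTTA was found once in GPR146, 2 times in GPR183, 4 in PLD6, 6 in SH3BP5 and 11 in EAF1. SH3BP5 had 4.87 per kb (percentile 91.0) against a median of 1.60 per kb over 8738 genes. Methylation was not measured here, and a letter match is not a methylated site.

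Lists of genes around each member were counted over 8 and 12 h, beside 12.2% of all genes lower, 4.91% higher and a median of -0.09. Of 74 other class A receptors 15 were measured, 3 lower and 2 higher (median 0.11), a balance that turned to 2 lower and 4 higher with median-of-ratios scaling. CXCR4, the receptor for CXCL12, was lower (-1.05, SE 0.17, limma adjusted p = 0.00129), as was GPR160 (-1.18, SE 0.30, limma adjusted p = 0.0163), with line D at -1.91 and line E at -0.45. S1PR4, a sphingosine phosphate receptor (0.77, limma adjusted p = 0.00276), and LTB4R, a leukotriene receptor (0.75, limma adjusted p = 0.00593), were higher. Of 14 genes of oxysterol synthesis and sensing 6 were measured, and MYLIP, which marks the LDL receptor for breakdown, was the 1 called (-0.70, limma adjusted p = 0.0170), against 1 higher and 2 lower with median-of-ratios scaling. Of 26 genes of G protein signalling 18 were measured, 2 higher (GRK5 at 0.66 and RGS19 at 0.65) and 1 lower (GNB1 at -0.50), and with median-of-ratios scaling 4 were higher and 2 lower. Of 12 ERK and SREBP2 genes 11 were measured, with INSIG1, which holds back sterol synthesis, higher (0.95, limma adjusted p = 0.0359, line D at 0.26 and line E at 1.64, passing in 10 of 18 alternatives) and the kinase MAP2K1 lower (-0.60, limma adjusted p = 0.0240).

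Around PLD6, 17 of 22 genes of mitochondrial fusion, fission and phospholipases D were measured. None was higher and 2 were lower: MTFP1, a fission factor of the inner membrane (-1.04, limma adjusted p = 0.00174), and the fusion GTPase OPA1 (-0.57, limma adjusted p = 0.0365). With median-of-ratios scaling this list gave 1 higher and 4 lower. Of 14 genes of the piRNA pathway 5 were measured and 3 were lower, GTSF1 (-0.996, limma adjusted p = 0.00230), TDRD9 (-0.95, limma adjusted p = 0.00267) and TDRKH (-0.63, limma adjusted p = 0.0262), with a median of -0.63. Around SH3BP5, 16 of 20 JNK genes gave 1 higher (the phosphatase PTPN6, 0.79) and 1 lower (the kinase BTK, -0.72, line D at -1.17 and line E at -0.27, passing in 6 of 18 alternatives), and 9 of 15 RAB11 recycling genes gave 1 higher (RAB8A, 1.10). Around EAF1, 31 of 39 genes of transcription elongation gave 1 lower, ICE2 of the little elongation complex (-0.68, limma adjusted p = 0.0163), and with median-of-ratios scaling 2 higher and 1 lower. Of 47 other LINC genes 6 were higher and 4 lower (median 0.10; 10 and 5 with median-of-ratios scaling), among them LINC01578 (-1.03) and LINC01410 (0.53). With 1 mean for each line or replicate, no gene of any of these lists was called.

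**Figure D5:**
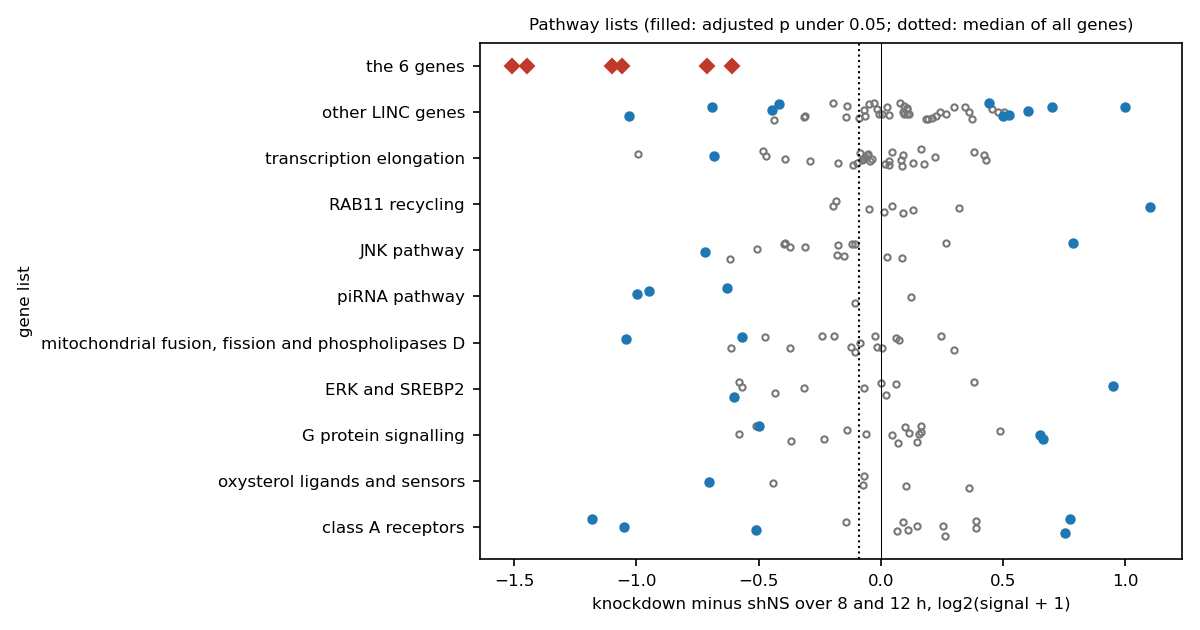
Knockdown minus shNS over 8 and 12 h in log2(signal + 1) for each measured gene of the pathway lists, 1 row for each list (filled where the limma adjusted p was under 0.05), with the 6 genes in red on top and a dotted line for the median of all genes, -0.09. The piRNA row has 3 filled points below -0.6, and the other rows are spread around the median line.

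The genes with the most similar pattern to each member were found by Pearson's r over the 12 libraries, after subtracting the mean of each time. The libraries share the contrast that chose the members, so r is a description. LINC01225 was first for LINC01226 (r = 0.986) and for GPR146 (r = 0.969). ALKBH5 itself was first for SH3BP5 (r = 0.993), and SH3BP5 was first for PLD6 (r = 0.989). FCGR2C, an Fc receptor gene whose reads can be shared with near-identical FCGR2 copies, was first for GPR183 (r = 0.979) and EAF1 (r = 0.990). Over the 15 pairs of members r ran from 0.794 to 0.989, with a median of 0.899.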

How the data were processed

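The deposited values are an expression signal for each gene symbol in 12 libraries, made by the authors with STAR, RSEM and GRCh38, per the submitters' processing notes. No source used here gives versions, settings or the unit before scaling. The members and gene lists were chosen with earlier results of these data known. All 9529 genes were tested, the lowest mean signal being 1.30. Tests used log2(signal + 1) in limma 3.58.1 (R 4.3.3) with a mean-variance trend and Benjamini-Hochberg adjustment, called under 0.05, on the 8 libraries at 8 and 12 h. The models were 4 group means, time plus knockdown, and time plus line. The procedure was tested on simulated data. Of the symbols 9144 were found in GENCODE 29, and 385 were not. Named genes were the 6 members, ALKBH5, the 3 genes most like each member, up to 4 genes of smallest p in each list, and measured genes within 250 kb. Absent cell type markers are named from the marker lists. Of the cell type markers, 1 is not reported here.

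Same-numbered shNS libraries deviated together only weakly between times, with correlations of 0.271, 0.0651 and 0.138. The knockdown lines did so more strongly, with 0.777, 0.657 and 0.900. Pairing across times comes from the replicate number and the line letter. Alternatives were the pseudocount (0.1, 5), a mean of at least 5, other scalings, limma without trend, all 12 libraries, 1 line at a time, line means, the block and leaving out each library.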

Additional observations from a re-analysis of the deposited data

How the results depend on the processing

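Leaving out 1 library at a time, the count of the 6 genes lower ran from 0 to 6 at 8 h, from 0 to 4 at 12 h and from 5 to 6 over both times. The count falling from 8 to 12 h ran from 3 to 5 in the knockdown and stayed at 6 in shNS, and the count differing between lines ran from 0 to 3. A library left alone in its group was assumed to vary like the others. At 12 h the count of 1 became 2 with a pseudocount of 0.1, 0 with a pseudocount of 5, 5 with median-of-ratios scaling (5.81% of all genes lower), 2 with all 12 libraries, 5 with line D alone (14.3%) and 6 with line E alone (12.6%). Fits of all 12 libraries take in the 0 h values that chose the genes, so they support nothing here. Over both times the count became 3 with line means, where 62 of 9529 genes were called lower.

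With median-of-ratios scaling, which removes a change common to all genes, the counts falling from 8 to 12 h became 0 in shNS and 0 in the knockdown, and 2 genes differed between lines. The changes turned to 0.41 and 0.57 for GPR146 (shNS, then knockdown), 0.18 and 0.27 for GPR183, 0.33 and 0.083 for PLD6, 0.040 and 0.045 for SH3BP5, 0.14 and 0.25 for EAF1, and 0.15 and 0.34 for LINC01226, and the late difference of PLD6 to -0.25. That scaling moved the median over all genes at 8 h from -0.23 to 0.00, and the calls over both times from 468 higher and 1166 lower to 1461 and 1456. The rescaling to the ERCC mean gave 650 and 918.

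Line D minus line E with all 12 libraries, which again averages in the choosing 0 h values, was -0.039 for EAF1 and -0.17 for LINC01226. Without 1 library it ran from -0.43 to 0.18 for GPR146, -0.13 to 0.61 for GPR183, -0.43 to 0.056 for PLD6, -0.60 to 0.031 for SH3BP5, -0.36 to 0.43 for EAF1 and -0.28 to 0.49 for LINC01226. The cause was not tested.

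With the replicate block, run for the changes from 8 to 12 h, the member counts were 6 in shNS, 5 in the knockdown and 0 for their difference, and it changed no call of a member. Over all genes, called counts ran from 0 to 5392 at 8 h (306 as reported), 0 to 4135 at 12 h (13), 77 to 4426 over both times (1634), and 940 to 5640 between lines (2528). The main fit used no filter, and the alternative with a mean signal of at least 5 kept 8068 genes. Depth is unknown.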
